A study of Trichoderma reesei with 8 samples.

Results

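Transcript levels of 3 nitrogen genes were followed through a carbon source shift of the wild-type *Trichoderma reesei* strain QM6a, a filamentous fungus used for cellulase production. The genes were a glutamine synthetase (transcript ID 123009), an oligopeptide transporter (120017) and a peptidase of family C1B (gene model e_gw1.17.86.1, transcript ID 65735), and they were 3 of 9126 gene models. They were chosen by their high RPKM (reads divided by transcript length and by a total of the library's reads) on straw and their rise over glucose-grown mycelia. Their values in straw and 48 h glucose are therefore a description, given with no test. RNA was sequenced from mycelia grown from conidia for 48 h in glucose (3 libraries), from mycelia washed and moved to wheat straw for 24 h (3 libraries), and from such straw cultures 5 h after glucose was added (2 libraries). All cultures were shaken at 28 °C in minimal medium with ammonium sulphate. A second oligopeptide transporter (46794) with the same annotation was set beside the 3 genes. It comes from the same list of straw-induced genes as the first.

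Glutamine synthetase joins ammonium to glutamate and so makes glutamine, the amide donor for purines, amino acids and chitin precursors. In fungi it is a main route of ammonium assimilation, and its genes are known to respond to the nitrogen supply. Oligopeptide transporters carry short peptides into the cell together with protons, and intracellular aminopeptidases cut imported and internal peptides down to amino acids. The C1B peptidases are the bleomycin hydrolase family, cytosolic cysteine aminopeptidases that are known best from yeast and mammals.

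The glutamine synthetase model estExt_fgenesh5_pg.C_170091 and the C1B peptidase model lie on the same scaffold, 17, of the JGI version 2.0 assembly. RefSeq places the glutamine synthetase gene at bases 312985 to 314656 and the peptidase gene at bases 664872 to 666302, so that 350216 bases separate them. The oligopeptide transporter, model estExt_fgenesh5_pg.C_20066, lies on scaffold 2 at bases 208655 to 211495, and the second transporter, model estExt_Genewise1.C_50904, on scaffold 5 at bases 1670798 to 1672884. Transcript lengths in the deposited tables were 1347 bases for glutamine synthetase, 1380 for the peptidase, 2620 for the transporter and 2011 for the second transporter.

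Sense reads counted on genes came to between 1337099 and 1704969 per library in 48 h glucose, between 2473359 and 2997433 on straw, and to 798550 and 950244 at 5 h glucose. Per 100 reads of the library total that the RPKM was divided by, 10.1 to 12.2 were counted on genes in 48 h glucose, 18.2 to 20.2 on straw and 7.38 to 10.2 at 5 h glucose. Levels are therefore also given as TMM-normalised CPM, counts scaled to the gene reads of the library after edgeR's trimmed mean scaling, which sets the bulk of genes level between libraries. Scaling by the RPKM totals in place of TMM moved the median log2 fold change of the 7211 genes tested to 0.85 against 0.05 for straw over 48 h glucose. It moved that median to -1.31 against -0.04 for 5 h glucose over straw, and to -0.40 against 0.06 for 5 h over 48 h glucose. The 3 genes and the second transporter all passed the filter on low counts. Straw libraries 1 and 3 differed by only 1.73 times the counting noise, against 17.9 to 56.2 for the other pairs within straw or 48 h glucose. The 2 libraries of 5 h glucose differed by 161 times the counting noise, the most of any replicate pair. In RNA from whole mycelium, fewer hyphae that express a gene and less of its RNA in each cannot be told apart.

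All 3 genes stood much higher on straw than in 48 h glucose, and their levels parted at 5 h glucose. Glutamine synthetase stayed within the top 72 gene models by RPKM 5 h after glucose was added, while the C1B peptidase overlapped glucose-grown mycelia and the oligopeptide transporters lay between. Glutamine synthetase and the peptidase had risen on straw by the same RPKM factor, 27.1, and at 5 h glucose the first had 77.6 times the RPKM of the second or more.

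Glutamine synthetase was read at 8.49, 8.53 and 6.68 RPKM in the 48 h glucose libraries, at 185, 269 and 188 RPKM on straw and at 191 and 161 RPKM at 5 h glucose. The glucose-grown mycelia were far below both later conditions, and the 5 h libraries overlapped the straw libraries on this scale. Among all gene models it ranked 2029 to 2177 by RPKM in 48 h glucose, 55 to 85 on straw and 55 to 72 at 5 h glucose. In TMM-normalised CPM it averaged 94.3 ± 4.83 in 48 h glucose (SD, n = 3), 1459 ± 272 on straw (n = 3) and 2935 ± 525 at 5 h glucose (n = 2). On this second scale both 5 h libraries, at 2563 and 3306 CPM, lay above the 3 straw libraries, at 1283, 1773 and 1322 CPM.

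The oligopeptide transporter was read at 1.69, 1.85 and 1.99 RPKM in 48 h glucose, at 130, 165 and 129 RPKM on straw and at 8.96 and 7.29 RPKM at 5 h glucose. None of the 3 conditions overlapped another. In RPKM the 5 h mean was 4.41-fold above 48 h glucose and 17.4-fold below straw, and with TMM scaling it was 6.03-fold above and 7.17-fold below. The read counts behind these values were 62 to 69 in 48 h glucose, 4593 to 5569 on straw and 184 and 246 at 5 h glucose. Its rank among gene models was 4515 to 5189 in 48 h glucose, 100 to 124 on straw and 1401 to 1635 at 5 h glucose.

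The second oligopeptide transporter was almost silent in 48 h glucose, at 0.213, 0.117 and 0.188 RPKM from 6, 3 and 5 reads. It reached 57.8, 54.9 and 56.2 RPKM on straw and was read at 4.57 and 2.39 RPKM at 5 h glucose. Its conditions did not overlap either, and its straw libraries varied little among themselves (coefficient of variation 2.51% in RPKM).

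The C1B peptidase was read at 3.89, 3.40 and 2.08 RPKM in 48 h glucose, at 81.7, 92.7 and 79.3 RPKM on straw and at 1.94 and 2.08 RPKM at 5 h glucose. The straw libraries stood alone, and the 5 h libraries fell at the lowest glucose-grown library or just under it. The reads behind these values numbered 75, 60 and 38 in 48 h glucose, 1519, 1610 and 1802 on straw and 21 and 37 at 5 h glucose, so that the glucose values carry more counting error than the straw values. In TMM-normalised CPM it averaged 37.7 ± 7.80 in 48 h glucose (SD, n = 3), 593 ± 29.2 on straw (n = 3) and 35.2 ± 12.0 at 5 h glucose (n = 2).

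**Figure D1:**
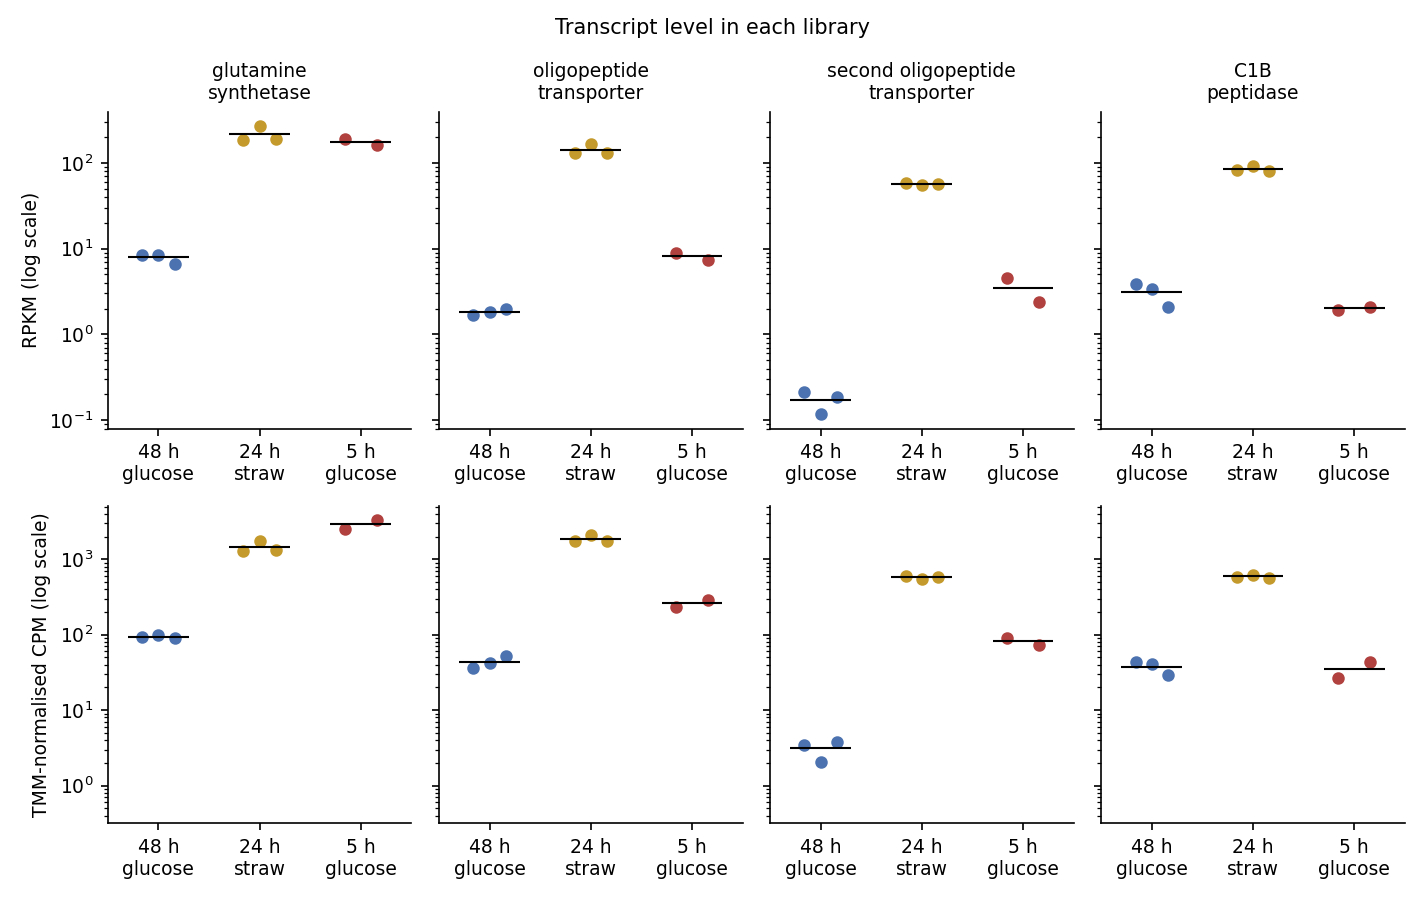
Level of each transcript in the 8 libraries, as RPKM in the upper row and as TMM-normalised CPM in the lower row, both on log axes, with 1 point per library and a line at the mean of each condition. Glutamine synthetase stays high at 5 h glucose, the 2 oligopeptide transporters lie between the other conditions, and the C1B peptidase overlaps the 48 h glucose values.

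The rise on straw over 48 h glucose was what the genes were chosen for. On the RPKM scale it came to 27.1-fold for glutamine synthetase, 76.6-fold for the oligopeptide transporter and 27.1-fold for the C1B peptidase, and to 326-fold for the second transporter. The limits behind the study's list of such genes were 50 RPKM on straw and a 20-fold rise, and all 4 genes lay above both. Glutamine synthetase and both transporters are in that list, and the peptidase is not. The study also discussed only inductions that were significant in all of its statistical tests. Straw mycelia held 384 gene models above 50 RPKM on average. With TMM scaling the rise was 15.5-fold for glutamine synthetase and 15.7-fold for the peptidase, both under 20-fold, against 43.2-fold for the transporter and 186-fold for the second transporter. As log2 fold changes from edgeR these were 3.95 (SE 0.22) for glutamine synthetase, 5.44 (SE 0.22) for the transporter, 3.96 (SE 0.20) for the peptidase and 7.51 (SE 0.25) for the second transporter. Across all genes tested, 30.6% were higher and 28.2% lower on straw at an adjusted p below 0.05 with TMM scaling, while library totals gave 4294 higher and 753 lower. Nothing is read from the genes' own calls in this comparison. Glutamine synthetase and the peptidase ranked 348 and 345 from the top of the 7211 genes by this fold change, and the transporter ranked 213.

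The second comparison asked what glucose did to straw cultures within 5 h. The rise that the genes were chosen for did not use the 5 h values but did use the straw libraries, and the choice was made with earlier results of all 8 libraries known. With edgeR's quasi-likelihood test, Benjamini-Hochberg adjusted over the 7211 genes, the peptidase and the transporter fell and glutamine synthetase rose with TMM scaling but not with library totals. Of all genes 30.0% fell and 28.5% rose with TMM scaling. The C1B peptidase had 5.93% of its straw level left in CPM (2.38% in RPKM), a log2 fold change of -4.06 (SE 0.26, adjusted p = 4.6e-10). It ranked 225 from the bottom of the 7211 genes, and the 5 h and straw libraries did not overlap on either scale.

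The oligopeptide transporter kept 14.0% of its straw level in CPM and 5.75% in RPKM, with a log2 fold change of -2.84 (SE 0.23, adjusted p = 9.1e-09). The second transporter kept 14.3% in CPM and 6.18% in RPKM, with a log2 fold change of -2.81 (SE 0.21, adjusted p = 3.3e-09). Both transporters lost about the same part of their straw level although they had started from different levels. Scaled by the library totals, the falls were larger, at -5.38 for the peptidase, -4.12 for the transporter and -4.05 for the second transporter, each with an adjusted p of 1.4e-09 or less in edgeR.

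Glutamine synthetase rose on the TMM scale, with a log2 fold change of 1.01 (SE 0.21, adjusted p = 0.00041 in edgeR) for 5 h glucose over straw, but that direction turned with the scaling. Scaled by the library totals, its log2 fold change was -0.28 (SE 0.23, adjusted p = 0.28 in edgeR), while the median of all genes stood at -1.31. In RPKM it kept 82.4% of the straw level and the libraries overlapped. Under both scalings it stood above the median gene, and the peptidase and both transporters stood below it. With library totals 443 genes rose and 4850 fell at 5 h glucose against straw, where TMM scaling gave 2056 and 2166.

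The third comparison asked how far the genes had come back to the level of mycelia grown in glucose from the start. The 48 h libraries took part in the rise that the genes were chosen for. That choice favours low 48 h values, and so calls of higher at 5 h glucose. The calls and adjusted p of the 3 genes and the second transporter in this comparison are therefore a description. Of the 3 genes 2 were called higher at 5 h glucose than in 48 h glucose and none lower, where 25.7% of all genes were higher and 23.2% lower with TMM scaling. Glutamine synthetase was 31.1-fold higher in CPM and 22.3-fold higher in RPKM, with a log2 fold change of 4.96 (SE 0.23, adjusted p = 8.1e-11, edgeR). It ranked 37 from the top of the 7211 genes.

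The oligopeptide transporter was still 6.03-fold higher in CPM and 4.41-fold higher in RPKM (log2 fold change 2.60, SE 0.22, adjusted p = 7.3e-08, edgeR). The second transporter was 26.5-fold higher in CPM and 20.2-fold higher in RPKM (log2 fold change 4.70, SE 0.30, adjusted p = 2.4e-09, edgeR), over a 48 h level of 3 to 6 reads. The C1B peptidase was at 93.3% of the 48 h level in CPM and 64.4% in RPKM. Its log2 fold change of -0.10 (SE 0.27, adjusted p = 0.78, edgeR) missed the threshold and its libraries overlapped on both scales. With library totals the values were 4.48 for glutamine synthetase, 2.13 for the transporter and 4.25 for the second transporter, each with an adjusted p of 1e-06 or less. The peptidase came to -0.63 (adjusted p = 0.098, edgeR).

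**Figure D2:**
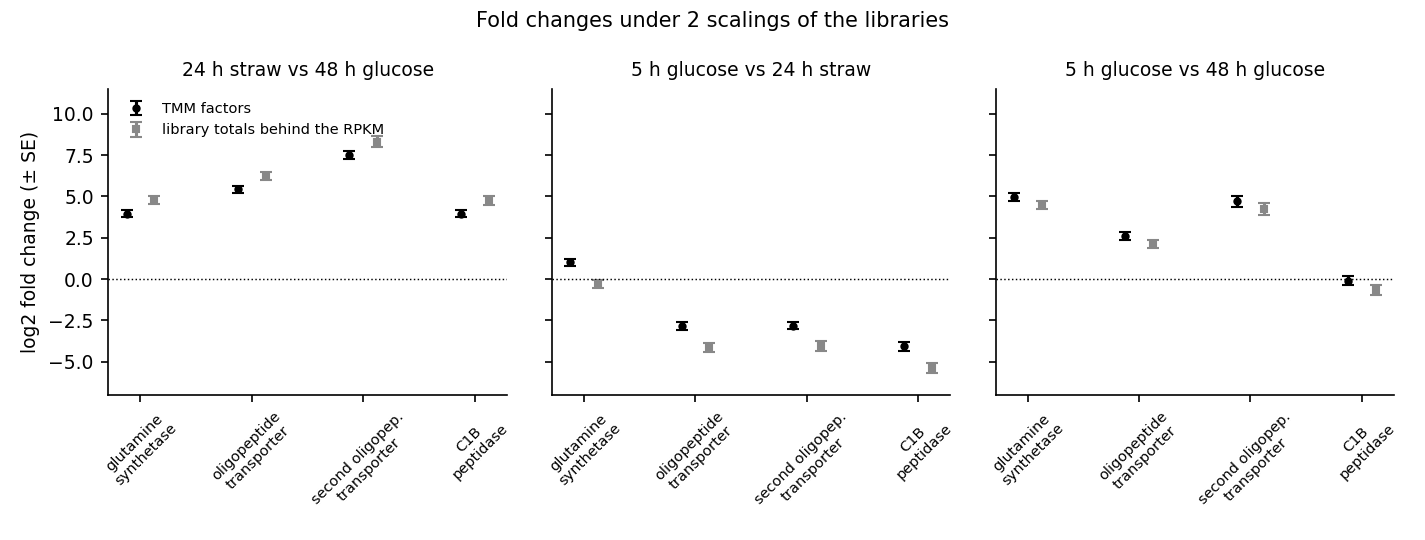
Log2 fold changes with their SE from edgeR in the 3 comparisons, with black circles for TMM scaling and grey squares for the library totals behind the RPKM. At 5 h glucose over straw only glutamine synthetase changes sign with the scaling, from 1.01 under TMM to -0.28 under library totals, and the other 3 transcripts lie at -2.81 or lower.

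A ratio of 2 transcripts within a library does not depend on how the libraries are scaled. Glutamine synthetase had 98.5 and 77.6 times the RPKM of the C1B peptidase in the 5 h libraries, against 2.26, 2.90 and 2.37 times on straw. In 48 h glucose the ratios were 2.19, 2.51 and 3.21, so the straw and 48 h libraries overlapped and both 5 h libraries stood far above them. The log2 ratio was 5.13 higher at 5 h glucose than on straw and 5.07 higher than in 48 h glucose. Both differences had an exact permutation p of 0.1, two-sided, which is the smallest that 2 libraries against 3 allow.

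Glutamine synthetase over the oligopeptide transporter gave 21.3 and 22.1 at 5 h glucose, against 1.42, 1.63 and 1.46 on straw. Against the 48 h glucose ratios of 5.02, 4.61 and 3.35, the 5 h ratios were higher as well. The log2 differences were 3.86 from straw and 2.35 from 48 h glucose (exact permutation p = 0.1 each). The 3 conditions did not overlap, and straw mycelia had the lowest ratio.

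The oligopeptide transporter over the peptidase gave 4.62 and 3.50 at 5 h glucose, against 1.59, 1.78 and 1.63 on straw. In 48 h glucose that ratio was 0.435, 0.544 and 0.956, below both of the other conditions. The log2 differences of 5 h glucose were 1.27 from straw and 2.72 from 48 h glucose (exact permutation p = 0.1 each). Benjamini-Hochberg adjustment over the 6 tests of the 3 pairs left each p at 0.1. The peptidase thus lost a larger part of its straw level in both 5 h libraries than the transporter did.

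The proportion of the 2 transporters was not seen to differ between 5 h glucose and straw. The first had 1.96 and 3.05 times the RPKM of the second at 5 h glucose, against 2.25, 3.00 and 2.29 times on straw, a log2 difference of -0.03 (exact permutation p = 1). Leaving out 1 library at a time moved that difference between -0.35 and 0.29, and the 5 h libraries lay on either side of the straw libraries. In 48 h glucose the ratio was 7.93, 15.9 and 10.6, resting on the 3 to 6 reads of the second transporter.

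**Figure D3:**
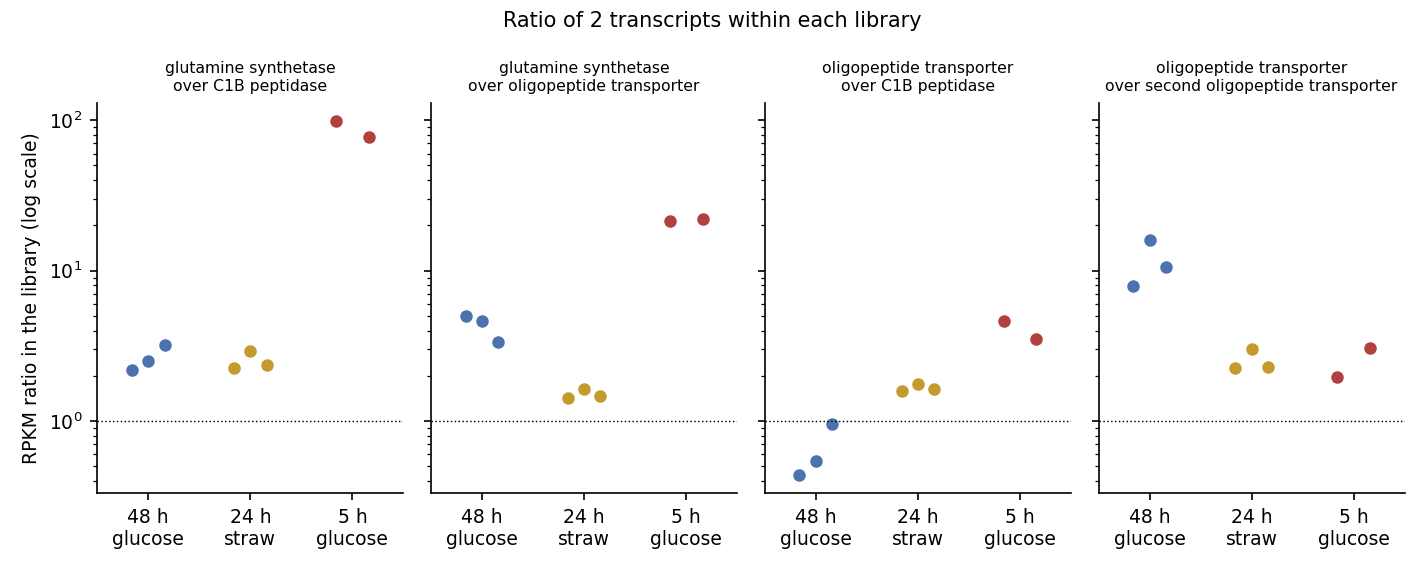
Ratio of the RPKM of 2 transcripts within each of the 8 libraries, on a log axis with a dotted line at 1. Glutamine synthetase over the C1B peptidase is between 2.19 and 3.21 in the 6 libraries of 48 h glucose and straw and at 98.5 and 77.6 at 5 h glucose, while the ratio of the 2 transporters overlaps between straw and 5 h glucose.

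Across the 8 libraries the log2 CPM of the oligopeptide transporter followed that of the second transporter closely (Pearson r = 0.986) and that of the peptidase less closely (0.886). Glutamine synthetase followed the transporter with r = 0.780 and the peptidase with r = 0.423. The 8 points fall into 3 conditions, so these values describe the condition means more than the libraries. Of the 6355 genes with enough reads to be compared, 362 had r above 0.95 with the peptidase, 263 with the transporter and 77 with glutamine synthetase.

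The genes nearest to each of the 3 by this measure were mostly without annotation in the tables used. For the peptidase they were estExt_fgenesh5_pg.C_190186, the maltose permease type transporter e_gw1.15.42.1 and the unknown protein estExt_fgenesh1_pm.C_260005, each with r = 0.996. The first of these was at 0.0851 to 0.104 RPKM at 5 h glucose, against 28.2 to 34.4 RPKM on straw. For glutamine synthetase they were estExt_GeneWisePlus.C_160344 (r = 0.994), fgenesh1_pm.C_scaffold_25000020 (0.991) and estExt_GeneWisePlus.C_30570 (0.990). The first was at 60.8 to 66.4 RPKM at 5 h glucose, against 71.0 to 111 RPKM on straw and 6.11 to 7.10 RPKM in 48 h glucose. For the transporter they were fgenesh5_pg.C_scaffold_3000504 (r = 0.999), e_gw1.5.594.1 and gw1.5.341.1 (0.998 each). For each of the 3, only 1 of its nearest 3 genes was among the nearest 3 on log2 RPKM, so the names depend on the measure. None was among the nearest 3 by rank correlation, but ties over 8 libraries make that count uninformative. The transporter's nearest gene, fgenesh5_pg.C_scaffold_3000504, was left out although its rank correlation was 1.

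Other genes were taken by keywords of nitrogen supply and peptidases from the annotation of the study's gene tables, which were made from these samples. The keywords also matched genes of other roles, such as a signal peptidase (53254) and an aminotransferase of biotin synthesis (65198). One of these tables was held only in part. The other gave only genes with antisense reads above a limit in these samples, so the lists were in part chosen by read values. Entries were held for 2116 of the 9126 gene models, some of them only as unknown protein, so the lists are not complete. They formed a list of transporters for amino acids and peptides, a list of nitrogen enzymes and regulators, and a list of peptidases, without the 3 genes. The transporter list includes the second oligopeptide transporter, which the study had listed for its rise on straw. Of 13 transporters tested, 6 were higher and 6 lower on straw than in 48 h glucose, beside 30.6% and 28.2% of all genes, with a median log2 fold change of 0.40 beside 0.05 for all genes. That median was -0.13 under a stricter reading of the annotations, which kept 12 transporters. The stricter reading left out entries with the words putative, -like or domain, or with a pfam, cd or COG identifier. The transporter it dropped was the LysP-type 66819 (log2 fold change 8.10), for its COG identifier. Of 12 enzymes and regulators, 6 were higher and 5 lower (median 0.48). Of 26 peptidases, 12 were higher and 4 lower (median 0.59).

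At 5 h glucose against straw, 6 transporters were higher and 6 lower (median log2 fold change -0.54), 3 enzymes were higher and 4 lower (median -0.31), and 6 peptidases were higher and 11 lower (median -0.51). Of all genes 28.5% were higher and 30.0% lower, with a median of -0.04. Against 48 h glucose, 4 transporters were higher and 4 lower, 1 enzyme was higher and 4 were lower, and 8 peptidases were higher and 6 lower, beside 25.7% and 23.2% of all genes. Each list thus held genes called in both directions in every comparison with TMM scaling, but the 5 enzymes left by the stricter reading were called in 1 direction at most, with 4 higher on straw than in 48 h glucose, 3 lower at 5 h glucose than on straw and 1 lower at 5 h than in 48 h glucose. With library totals the 5 h glucose over straw counts were 2 higher and 8 lower for the transporters, 1 and 8 for the enzymes, and 0 and 20 for the peptidases, with medians of -1.81, -1.58 and -1.82 beside -1.31 for all genes and 443 higher and 4850 lower calls among them. On straw over 48 h glucose they were 7 and 4, 6 and 3, and 21 and 1, in the same order of lists and directions, with medians of 1.21, 1.26 and 1.40 beside 0.85 for all genes and 4294 higher and 753 lower calls among them. At 5 h over 48 h glucose they were 2 and 4, 1 and 4, and 5 and 8, so that the balance of the peptidases turned, beside 847 higher and 2415 lower of all genes.

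The list genes named from here on were picked by their change on straw or after their values were seen, so their adjusted p are a description. Apart from the oligopeptide transporters, and among transporters with at least 20 reads per library on average, the IndA1 amino acid transporter (51110) had the largest rise on straw over 48 h glucose, 6.63 on the log2 scale. It was at 15.2 and 5.23 RPKM at 5 h glucose, against 38.3 to 41.6 RPKM on straw and 0.209 to 0.252 RPKM in 48 h glucose. Its log2 fold change was -0.83 for 5 h glucose over straw (adjusted p = 0.0035) and 5.79 over 48 h glucose (adjusted p = 3.1e-10, edgeR). The amino acid transporter of PotE type (56314) had 0 reads in both 5 h libraries, against 2.33 to 4.79 RPKM on straw, and was at 0.104 RPKM or less in 48 h glucose.

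A LysP-type amino acid transporter (66819), picked out after its values were seen and with 19.9 reads per library on average, was at 0.0762 and 0.0464 RPKM at 5 h glucose, against 2.07 to 2.33 RPKM on straw, and had 0 reads in the 48 h glucose libraries.

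With TMM scaling 6 transporters were lower on straw than in 48 h glucose, and all of these but 62711 were higher at 5 h glucose than on straw. The amino acid transporter 62711 had log2 fold changes of -0.65 on straw over 48 h glucose and -0.54 at 5 h glucose over straw (adjusted p = 0.002 and 0.034, edgeR). In RPKM it was at 9.22 to 11.8 on straw, overlapping the 9.44 to 10.1 of 48 h glucose, and at 3.70 and 2.55 at 5 h glucose. The amino acid permease 67806 was at 9.37 and 4.29 RPKM at 5 h glucose, against 1.46 to 2.58 RPKM on straw, a log2 fold change of 3.05 (adjusted p = 1e-08, edgeR), and at 4.87 to 5.99 RPKM in 48 h glucose. The transporters 81442 and 54365 were likewise lower on straw than in 48 h glucose by 2.90 and 0.68 on the log2 scale of TMM (adjusted p = 3.5e-08 and 0.0061, edgeR). For 54365 the RPKM of straw, 2.61 to 3.55, overlapped the 2.69 to 3.26 of 48 h glucose and the 3.62 and 2.07 of 5 h glucose. Its calls in both of these comparisons therefore rest on the scaling. The peptide transporter MTD1 (123979) and the amino acid transporter 57015, each under 20 reads per library on average and picked out after their values were seen, had log2 fold changes of -3.62 and -3.68 on straw over 48 h glucose. At 5 h glucose over straw theirs were 2.11 and 2.05 (adjusted p = 0.0031 and 0.011, edgeR).

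The other 12 nitrogen enzymes and regulators had log2 fold changes of at most 1.75 on straw over 48 h glucose and 1.31 at 5 h over 48 h glucose, but no weight is given to the higher values of glutamine synthetase there, since it was chosen for its rise over 48 h glucose. At 5 h glucose over straw 3 of the 12 (63180, 68615 and 65198), at 2.69, 1.67 and 1.12, lay above its 1.01. The 1.12 of 65198 (SE 0.34) could not be told apart from the 1.01 of glutamine synthetase (SE 0.21). In RPKM 65198 was at 0.798 to 0.839 at 5 h glucose, within the 0.699 to 1.07 of straw. The 1.75 belonged to a carbon-nitrogen hydrolase (66766), a class that splits nitriles or amides. It was at 0.299 and 0.0911 RPKM at 5 h glucose, against 13.2 to 15.0 RPKM on straw and 1.51 to 2.84 RPKM in 48 h glucose, and so fell below both (log2 fold changes -4.98 and -3.23, adjusted p = 7.2e-08 and 0.00017, edgeR).

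The 1.31 belonged to an acetylornithine aminotransferase-like protein (63180), an enzyme type of arginine synthesis. It was at 39.2 and 43.3 RPKM at 5 h glucose, against 14.4 to 19.1 RPKM on straw (log2 fold change 2.69, adjusted p = 7.2e-09, edgeR). An amidase (68615) and a BioA-type aminotransferase of biotin synthesis (65198) were lower on straw than in 48 h glucose by 1.62 and 2.40 on the log2 scale (adjusted p = 1.5e-06 and 1.2e-07, edgeR). The aminotransferases 56572 and 4109 were higher on straw by 1.21 and 1.15 (adjusted p = 0.013 and 0.012, edgeR), at no more than 3.54 RPKM.

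Among the peptidases, the rise of the C1B peptidase on straw (log2 fold change 3.96) was close to that of a subtilisin-like protease (110910, 3.95) and below that of a dipeptidyl peptidase 5 (56830, 4.71). Both of these had under 20 reads per library on average, with 0 to 2 in each 48 h glucose library, and were picked out after their values were seen. The largest rises from more reads were those of an ADAM-type zinc metalloprotease (53343, 2.52), a calpain-like protease (67761, 2.33) and a serine carboxypeptidase (61127, 2.24). The metalloprotease was at 5.60 and 4.06 RPKM at 5 h glucose, against 21.5 to 24.5 RPKM on straw, and remained above the 1.66 to 2.74 RPKM of 48 h glucose (log2 fold change 1.51, adjusted p = 1.1e-05, edgeR). The serine carboxypeptidase showed a log2 fold change of 0.19 for 5 h glucose over straw (adjusted p = 0.62, edgeR) and its libraries overlapped in CPM, though in RPKM it was at 1.91 and 2.02 at 5 h glucose, against 3.58 to 4.89 on straw.

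The Ste24p-type peptidase 63398, which in yeast processes prenylated proteins, was lower on straw than in 48 h glucose by 1.51 on the log2 scale (adjusted p = 4.6e-07, edgeR). A methionine aminopeptidase (62335), which removes the first methionine of new proteins, and a subtilisin-like protease (64261) were lower by 0.75 and 0.41 (adjusted p = 0.00082 and 0.043, edgeR). The RPKM of these 2 were 18.2 to 21.7 and 25.9 to 29.0 on straw, against 17.7 to 19.8 and 19.8 to 22.3 in 48 h glucose, so the direction of the subtilisin-like protease turned with the scaling and that of the methionine aminopeptidase was not separable in RPKM.

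**Figure D4:**
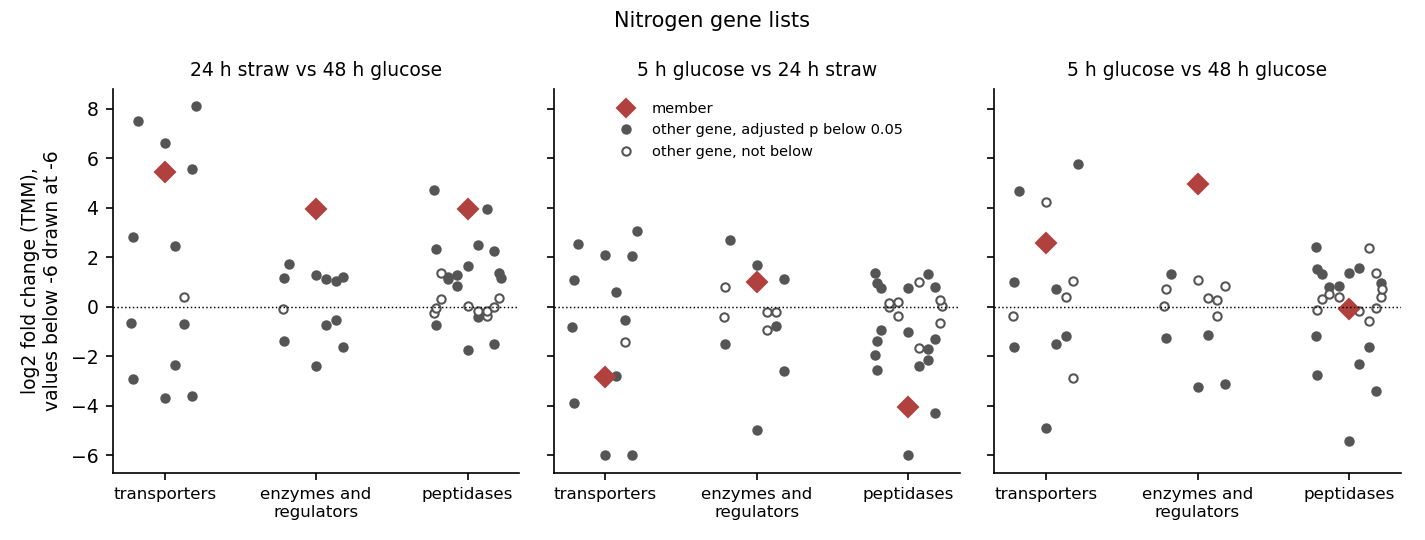
Log2 fold changes under TMM scaling of the genes in the 3 nitrogen lists, in 3 comparisons, with filled circles for an adjusted p below 0.05, open circles for the rest and a diamond for glutamine synthetase, the oligopeptide transporter or the C1B peptidase in its list. Each list spreads to both sides of 0, glutamine synthetase at 1.01 lies below 3 of the 12 other enzymes at 5 h glucose over straw (and at -0.28 with library totals), and 3 fitted values from genes with almost no reads at 5 h glucose are drawn at the lower end of the axis. Of the 3 enzymes above glutamine synthetase, the nearest, 65198, lies at 1.12 with an SE of 0.34.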

How the data were processed

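SOLiD reads of 50 bp had been aligned by the authors, using BioScope 1.3, against the version 2.0 JGI assembly, and reads of rRNA genes had been taken out. For each gene model they deposited a count of uniquely aligned sense reads, made with HTSeq. The deposited RPKM is that count over transcript length and a total of the library, which was calculated back from the values. Glutamine synthetase and both transporters were found as the single model whose mean RPKM in the 3 conditions matched the study's printed values within 0.005. The members and lists were chosen with earlier results of these data known. Counts were tested with edgeR 4.0.16 (R 4.3.3) by quasi-likelihood in 1 fit of the 8 libraries with condition as the only term, TMM factors and the filterByExpr filter, calling genes at a Benjamini-Hochberg adjusted p below 0.05. The fit was tested on simulated data. Ratios were compared by two-sided exact permutation in Python 3.11.15, and scipy 1.17.1 gave the Benjamini-Hochberg adjustment of their p. Named besides the members were the 3 genes of highest Pearson r with each, among those with a mean of at least 20 counts, and up to 3 genes per list and direction with the largest change on straw, no overlap in CPM and at least 20 counts. Gene positions came from the RefSeq table of the version 2.0 assembly. Alternatives were DESeq2 1.42.0, library totals as the scaling, no filter, fits of 2 conditions, a replicate block, and each library left out. No sequences were used here.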

Additional observations from a re-analysis of the deposited data

How the results depend on the processing

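Every alternative kept the direction and the side of the threshold of the falls of the C1B peptidase and the oligopeptide transporter from straw to 5 h glucose, and of the excess of glutamine synthetase and the transporter over 48 h glucose. Scaling by library totals turned the change of glutamine synthetase at 5 h glucose over straw to -0.28 on the log2 scale, against 1.01 with TMM, and it raised the description of straw over 48 h glucose to 4.75 for the peptidase, 4.76 for glutamine synthetase and 6.26 for the transporter. The median of all genes moved likewise, as given with the results. The other settings left glutamine synthetase between 0.75 and 1.14 at 5 h glucose over straw.

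Without 1 library at a time, the peptidase ranged from -0.56 to 0.17 at 5 h over 48 h glucose, with no value past the threshold, and the log2 ratio of glutamine synthetase over the peptidase on straw against 48 h glucose ranged from -0.18 to 0.093. With the replicate number as a block, glutamine synthetase came to 0.96 at 5 h glucose over straw (adjusted p = 0.00052, edgeR), and 4199, 4097 and 3388 genes were called in the 3 comparisons in place of 4237, 4222 and 3521. Samples of the same number did not deviate together (correlations from -0.03 to 0.15), so the numbers were not taken as pairs. Straw libraries 1 and 3 summed as 1 library, a choice made after seeing the data, gave 0.93 for glutamine synthetase (adjusted p = 0.0049, edgeR).

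The 5 h condition had 2 libraries of the lowest depth, and the peptidase rested there on 21 and 37 reads. These 2 libraries also differed more than any other replicate pair, by 161 times the counting noise. With 2 libraries against 3, the smallest p of a ratio is 0.1, above the threshold of 0.05. The stricter lists left out annotations with putative, -like or domain words or with a pfam, cd or COG identifier. They left 4, 3 and 1 enzymes called in the 3 comparisons, each in 1 direction, and 9 peptidases at 5 h over 48 h glucose.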
